A study of Homo sapiens with 6 samples.

Results

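NEUROG2, NEUROD1, NEUROD4, INSM1 and INSM2 are transcription factors of early neurons and neuroendocrine cells, and their transcripts were followed here in neuroblastoma cells depleted of CSA or CSB. The genes were picked by symbol, 5 names against 32575 genes listed in at least 1 of 6 libraries, and 4 of the 5 had an entry. All 4 listed genes passed the filter on low values, and NEUROD4 has no entry in any library, so no value is given for it. The names were chosen with their levels in these same libraries known. Their levels and fold changes are therefore given as a description, without a test, and tests are kept for other genes of the same pathways.

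Proneural factors of the basic helix-loop-helix (bHLH) class bind the E-box as dimers with E proteins such as TCF3, TCF4 and TCF12 and start neuronal differentiation. NEUROG2 acts early in this chain in mouse and frog embryos, and NEUROD1 and NEUROD4 act after the neurogenins. ID proteins take E proteins away from proneural factors, and HES and HEY repressors, which Notch signalling induces, hold proneural genes down. INSM1 and INSM2 are related zinc finger factors. INSM1 was first found in insulinoma, is used as a marker of neuroendocrine tumours and recruits LSD1 (gene KDM1A) and its partners through an N-terminal SNAG domain.

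SH-SY5Y cells, a line from a human neuroblastoma, received a CSA hairpin, a CSB hairpin or a control hairpin by lentivirus and were kept under puromycin for 2 to 3 weeks. The 3 groups are the CSA knockdown, labelled CSAmut, the CSB knockdown, labelled CSBmut, and the control, labelled WT, with 2 libraries each. ERCC8 encodes CSA, a subunit of a ubiquitin ligase, and ERCC6 encodes CSB, an ATPase that remodels chromatin. Both proteins act where DNA damage stalls transcription. Separate infections or cultures for the pair of libraries in a group are not stated in the labels, so a p-value reflects library-to-library spread, which may be technical.

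Values are scaled counts, that is reads per gene divided by 1 size factor per library, and the libraries held 19368272 to 26758162 reads. ERCC8 had scaled counts of 61.8 and 57.2 in the CSA knockdown, against 219 and 217 in control, and ERCC6 had 258 and 302 in the CSB knockdown, against 615 and 593 in control. Of 8 sympathetic neuroblast markers, none was at or under 3 reads throughout, although tyrosine hydroxylase (TH), the first enzyme of noradrenaline synthesis, had 2.86 to 20.3. Their summed level was 103843 and 104749 in the CSA knockdown, 95015.6 and 95369.5 in the CSB knockdown and 97015.9 and 94559.8 in control. Single markers moved in different directions under this sum. DBH had 13986 and 14528 in the CSA knockdown against 8265 and 7961 in control. In the CSB knockdown PHOX2A was higher (18293 and 17521 against 14567.5 and 13724 in control) and STMN2 lower (18080.5 and 18465.5 against 25540 and 25639). Of the other marker lists, 3 of 4 immune, 4 of 4 pancreatic endocrine, 2 of 3 endothelial, 2 of 4 epithelial and 1 of 5 glial markers stayed at or under 3 reads in every library; INS, GCG, SOX10, CD3E and PECAM1 were at 0 throughout. The epithelial sum was 55.3 and 52.5 in the CSA knockdown, 44.0 and 42.9 in the CSB knockdown and 34.8 and 25.1 in control, with EPCAM as its main part and KRT5 and KRT14 at 0. The 5 fibroblast markers were detected, and their sum was 2746 and 2895 in the CSA knockdown, 6129 and 6151 in the CSB knockdown and 3894 and 3764 in control. This sum was lower in the CSA knockdown and higher in the CSB knockdown, opposite to NEUROG2 and INSM2 below, and its part in their levels was not tested. In such bulk RNA, fewer cells of a type and less RNA per cell cannot be told apart.

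The start regions of NEUROG2, INSM2 and NEUROD1 are printed because NEUROG2 and INSM2 differed between the groups by far more than NEUROD1, in the same order of groups. RefSeq promoters (GRCh38.p14, 250 bases before to 50 after the start) matched 4 of the 5 genes. Capitals mark the E-box CANNTG and the TATA-type motif TATANA, both searched on both strands; the second was chosen after the sequences were seen. The windows are chr4:112516131-112516430, minus strand, for NEUROG2, chr14:35533914-35534213, plus strand, for INSM2 and chr2:181680468-181680767, minus strand, for NEUROD1.
NEUROG2: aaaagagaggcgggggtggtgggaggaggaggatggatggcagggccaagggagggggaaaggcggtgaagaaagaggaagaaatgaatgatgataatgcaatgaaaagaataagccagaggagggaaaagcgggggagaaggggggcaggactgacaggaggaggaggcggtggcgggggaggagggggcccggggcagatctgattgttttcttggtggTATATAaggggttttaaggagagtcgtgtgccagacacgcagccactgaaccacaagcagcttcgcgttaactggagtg
INSM2: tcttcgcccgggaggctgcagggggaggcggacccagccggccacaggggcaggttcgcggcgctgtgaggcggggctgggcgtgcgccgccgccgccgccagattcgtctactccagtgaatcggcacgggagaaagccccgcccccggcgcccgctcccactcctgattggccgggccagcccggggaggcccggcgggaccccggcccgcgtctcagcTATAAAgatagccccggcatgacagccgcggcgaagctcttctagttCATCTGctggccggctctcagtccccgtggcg
NEUROD1: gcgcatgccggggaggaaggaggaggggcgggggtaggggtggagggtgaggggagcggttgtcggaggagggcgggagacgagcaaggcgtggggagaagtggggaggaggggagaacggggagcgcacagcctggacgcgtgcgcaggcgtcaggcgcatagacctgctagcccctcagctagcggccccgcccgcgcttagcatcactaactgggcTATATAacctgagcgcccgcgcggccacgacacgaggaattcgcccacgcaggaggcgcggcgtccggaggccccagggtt
Each of the 3 windows held 1 TATANA match, beginning at position -29 in NEUROG2 and INSM2 and -31 in NEUROD1, counted from the RefSeq start site. That motif was present in 19.0% of 35116 promoters of the same length. INSM2 also held 1 E-box, CATCTG, beginning at position 19, which reads CAGATG on the other strand. CAGATG in either orientation was in 14.7% of the promoters, and CANNTG, which includes it, in 68.7%. No CANNTG lay in the windows of NEUROG2 and NEUROD1. The RefSeq start sites are not the gene bounds given below. The listed INSM2 gene begins at 35534042, inside its window but before the RefSeq start. The listed NEUROD1 gene, on the minus strand, begins at 181680876, outside its window. A match describes the letters and not a site in use.

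NEUROG2 was the factor with the widest range. Its 2287-base transcript of 2 exons lies at 112513516 to 112516172 of chromosome 4, minus strand (hg38). Scaled counts were 643 and 684 in the CSA knockdown, 0 and 0.825 in the CSB knockdown and 17.9 and 28.0 in control. The groups did not overlap, and the CSB knockdown held a single read in its 2 libraries. Levels averaged 663 ± 29.0 in the CSA knockdown and 22.9 ± 7.12 in control (SD, n = 2 each), a log2 fold change of 4.83 ± 0.35 (SE) on the log2(scaled count + 1) scale. As a ratio of scaled reads this was 28.9 (95% interval 21.6 to 39.5). For the CSB knockdown, 1 read stood against 47 in control, a ratio of 0.0205 (95% interval 5.1e-04 to 0.120). The exact intervals cover counting error only.

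INSM2 was the most abundant of the 4 in control cells. It is a gene of 1 exon of 3013 bases on the plus strand of chromosome 14 from 35534042 to 35537054. It had scaled counts of 2506 and 2502 in the CSA knockdown, 14.3 and 15.7 in the CSB knockdown and 399.8 and 406 in control. The 2 libraries of each group lay close together and the 3 groups far apart. The CSA knockdown averaged 2504 ± 2.52 and control 403 ± 4.42 (SD, n = 2 each), a log2 fold change of 2.63 ± 0.09. The CSB knockdown mean was 15.0 ± 0.963, a log2 fold change of -4.66 ± 0.09 against control and of -7.29 ± 0.09 against the CSA knockdown. Behind these means stood 4936 reads in the CSA knockdown, 32 in the CSB knockdown and 823 in control.

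**Figure D1:**
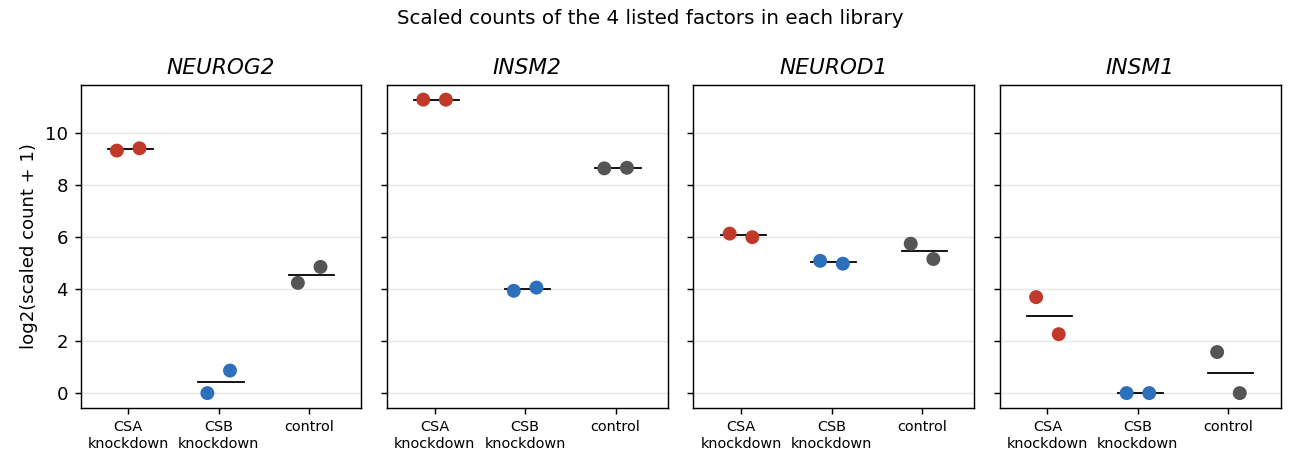
Scaled counts of NEUROG2, INSM2, NEUROD1 and INSM1 on a log2(scaled count + 1) axis in the 2 libraries of the CSA knockdown, the CSB knockdown and control. Points are libraries and bars are group means. NEUROG2 ran from 0 in a CSB knockdown library to 684 in a CSA knockdown library, and NEUROD1 from 30.5 to 69.4.

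NEUROD1, a bHLH factor of neurons and pancreatic endocrine cells, kept a much narrower range. It had scaled counts of 69.4 and 62.9 in the CSA knockdown, 33.0 and 30.5 in the CSB knockdown and 52.7 and 34.7 in control. The groups did not overlap, but the control libraries differed from each other by more than the lower one differed from the CSB knockdown. The log2 fold change against control was 0.61 ± 0.24 in the CSA knockdown and -0.42 ± 0.24 in the CSB knockdown. The ratio of reads for the CSB knockdown against control, 0.725, had a counting interval of 0.520 to 1.01 (95%), which leaves out the spread between libraries. NEUROD1 lies at 181673088 to 181680876 of chromosome 2, minus strand, and CERKL, a ceramide kinase-like gene on the same strand, overlaps it. Of 3312 exon bases of NEUROD1, 236 are also exon in 2 CERKL transcripts (GENCODE v29), so reads there may have gone to either gene or been left out.

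INSM1 stayed near the detection limit. This gene of 1 exon on the plus strand of chromosome 20, from 20368121 to 20370949, had 11 and 4 reads in the CSA knockdown, 0 and 0 in the CSB knockdown and 2 and 0 in control. As scaled counts these were 11.9 and 3.81, 0 and 0, and 1.99 and 0. The CSA knockdown libraries were above the others, with a ratio of reads to control of 7.77 (95% interval 1.81 to 70.0). Against the CSA knockdown, the CSB knockdown was at least 2.72-fold lower, taking 3 reads per library as the limit that a count of 0 allows; the bound was 1.32 without CSA knockdown replicate 1 and 4.13 without replicate 2. The CSB knockdown and control were both at or under that limit and no fold is given. All 4 listed factors were higher in the CSA knockdown than in control with no overlap, where 26.4% of all 28388 genes tested were higher in that way and 27.1% lower. NEUROG2, INSM2 and NEUROD1, 3 of the 4, were lower in the CSB knockdown with no overlap, where 22.2% of all genes tested were lower in that way and 36.5% higher. The names were chosen on these levels, so nothing is read from the shares.

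Per kilobase of listed gene length, the order of the 4 factors differed between groups. In the CSA knockdown INSM2 came first with 832 and 831 scaled counts per kilobase, then NEUROG2 with 281 and 299, NEUROD1 with 20.9 and 19.0 and INSM1 with 4.21 and 1.35, and no neighbours in that order overlapped. In the CSB knockdown NEUROD1 came first with 9.97 and 9.22, ahead of INSM2 with 4.75 and 5.20, NEUROG2 with 0 and 0.361 and INSM1 with 0 and 0. The last pair overlapped. In control INSM2 had 133 and 135, NEUROD1 15.9 and 10.5, NEUROG2 7.83 and 12.2 and INSM1 0.703 and 0, and NEUROD1 and NEUROG2 could not be separated by their libraries. Among 16555 protein-coding genes listed, INSM2 per kilobase exceeded 94.9% and 94.6% in the CSA knockdown, 20.4% and 21.0% in the CSB knockdown and 60.7% and 61.1% in control. NEUROG2 exceeded 79.4% and 80.5% in the CSA knockdown, 0% and 7.13% in the CSB knockdown and 24.5% and 27.5% in control.

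The genes with the most similar course were found by the Euclidean distance over the 6 libraries of log2(scaled count + 1), each gene set to its own control mean, among 18320 genes with a mean of at least 10 in a group. CCDC68, which encodes a centriole protein, was nearest to both NEUROG2 (2.74) and INSM2 (1.28). It had scaled counts of 166 and 151 in the CSA knockdown, 0 and 0.825 in the CSB knockdown and 21.9 and 17.4 in control. INSM2 was second nearest to NEUROG2 at a distance of 3.27, followed by RP11-14O19.2 (3.40) and the growth factor gene IGF2 (3.50). From the side of INSM2, IGF2 (1.36), KIAA0125 (1.37) and RP11-561B11.6 (1.89) followed CCDC68, and NEUROG2 ranked 11. RP11-561B11.6 lies near INSM2 on chromosome 14, from 35447003 to 35447625. It had 109 and 99.2 in the CSA knockdown, 0 and 2.48 in the CSB knockdown and 27.8 and 27.0 in control. The 2 nearest listed genes on that side lie closer to INSM2, so RP11-561B11.6 is not among the neighbours compared below. IGF2 had 3586 and 3769.8 in the CSA knockdown, 50.6 and 47.9 in the CSB knockdown and 718 and 613 in control. NEUROD1 was nearest to RP3-323P24.3 (0.22), DAND5 (0.25), GLRB (0.29) and FOXN3-AS1 (0.32). GLRB, the beta subunit of the glycine receptor, had 310.0 and 247 in the CSA knockdown, 123 and 113 in the CSB knockdown and 197 and 153 in control. INSM1, with its few reads, was nearest to CACNA2D3 (1.03), AC079354.3 (1.31), NWD2 (1.32) and AC005062.2 (1.33). These genes were found by their pattern, which is a description and carries no test.

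Genes beside the factors on the chromosome were then compared. The 2 nearest listed genes on each side and any overlapping gene gave 18 genes, of which 16 were tested. In the CSA knockdown 3 rose and 0 fell, where 18.8% of all genes tested changed (8.37% rose, 10.4% fell). In the CSB knockdown 1 rose and 4 fell, where 23.6% of all genes changed (14.8% rose, 8.86% fell). Scaling by the trimmed mean of M values (TMM) moved the split of all calls in the CSB knockdown, 62.5% of which were rises, to 48.2%. With limma on all 28388 genes and Benjamini-Hochberg adjustment, 1 of these calls against control held with any one library left out, the rise of RALGAPA1.

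RALGAPA1, a regulator of Ral GTPases, ends 1298 bases beyond the end of INSM2 and is read from the opposite strand. It had scaled counts of 1485 and 1388 in the CSA knockdown, 960.1 and 977 in the CSB knockdown and 1019 and 1039 in control. It rose in the CSA knockdown (log2 change 0.48 ± 0.06, adjusted p = 9.7e-05), and its difference in the CSB knockdown did not pass (log2 change -0.09 ± 0.06, adjusted p = 0.341). RALGAPA2, its relative beside INSM1, did not pass in the CSA knockdown (log2 change -0.13 ± 0.07, adjusted p = 0.274) and fell in the CSB knockdown (log2 change -0.39 ± 0.07, adjusted p = 0.00207), a call that ended without either CSB knockdown or either control library (adjusted p up to 0.108).

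CFAP61, a gene of motile cilia that ends 7419 bases before INSM1, had scaled counts of 43.4 and 40.1 in the CSA knockdown, 3.30 and 4.95 in the CSB knockdown and 10.9 and 9.65 in control. It rose in the CSA knockdown (log2 change 1.92 ± 0.39, adjusted p = 0.0038) and fell in the CSB knockdown (log2 change -1.16 ± 0.39, adjusted p = 0.0487). The rise ended without either CSA knockdown or either control library (adjusted p up to 0.0784), and the fall when any one of the 6 libraries was left out (up to 0.182) and by edgeR on recovered reads (adjusted p = 0.0665). The direct comparison of the CSB with the CSA knockdown kept its call throughout (log2 fold change -3.08 ± 0.39, adjusted p = 5.8e-05).

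Around NEUROD1, the overlapping CERKL had 130.1 and 99.2 in the CSA knockdown, 37.4 and 32.2 in the CSB knockdown and 72.6 and 82.0 in control. It fell in the CSB knockdown (log2 change -1.13 ± 0.19, adjusted p = 0.00101), a call that ended without either CSB knockdown or either control library (adjusted p up to 0.0972), and in the CSA knockdown it did not pass (log2 change 0.55 ± 0.19, adjusted p = 0.0700), though it did by edgeR (adjusted p = 0.00789) and with a filter at a mean of 10 (0.0326). The integrin gene ITGA4, 136901 bases away, rose in the CSA knockdown (log2 change 0.68 ± 0.10, adjusted p = 3.8e-04) and fell in the CSB knockdown (log2 change -0.91 ± 0.10, adjusted p = 3.3e-05). Both calls ended without either CSB knockdown library, and the rise also without either control library. For the rise, the CSB knockdown libraries are outside the comparison and enter only the shared estimate of spread. Beside NEUROG2, the helicase-like gene ZGRF1, 23161 bases away, did not pass in either knockdown (log2 fold changes -0.08 ± 0.07 and -0.09 ± 0.07, adjusted p = 0.512 and 0.407). ALPK1, 70896 bases away on the other side, rose in the CSB knockdown (log2 change 0.61 ± 0.19, adjusted p = 0.0362), a call that any one library left out ended (up to 0.252), as did TMM scaling (adjusted p = 0.064). RP11-402J6.1, antisense to NEUROG2 and overlapping it, had scaled counts of 0 and 4.77 in the CSA knockdown, 0 and 0.825 in the CSB knockdown and 1.99 and 0 in control. The sources used here do not give a strand setting for the counting.

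**Figure D2:**
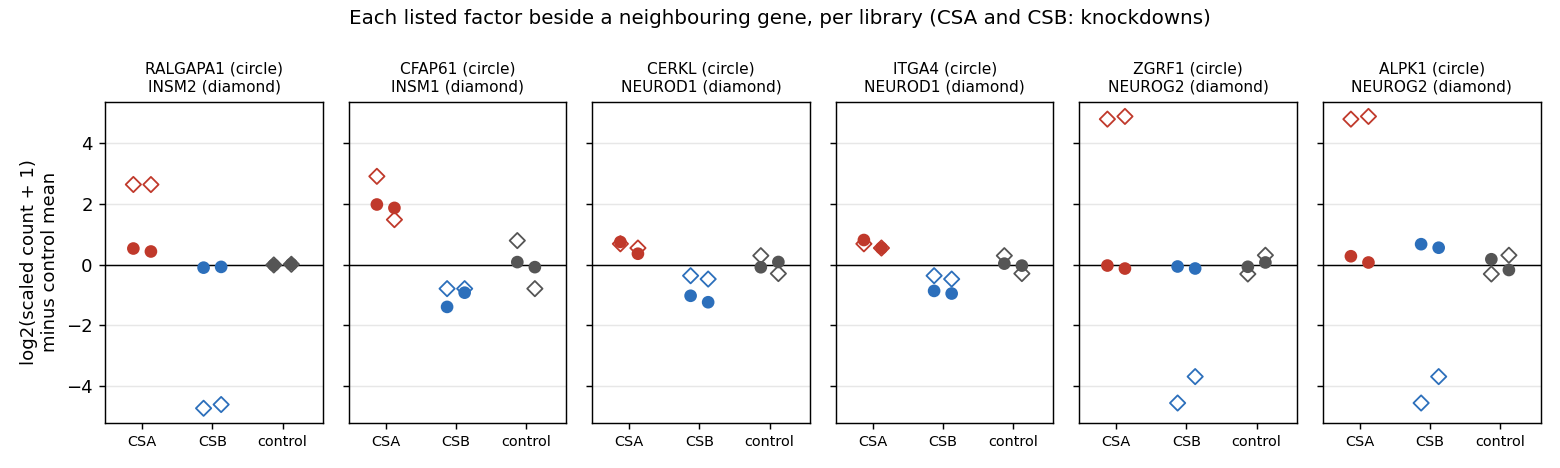
log2(scaled count + 1) minus the control mean in each library for 6 neighbouring genes (circles) and the factor beside them (open diamonds), with the CSA knockdown, the CSB knockdown and control from left to right. ZGRF1 lay between 661 and 759 scaled counts in every library while NEUROG2 beside it spanned 0 to 684; INSM1 was at or under 3 reads in the CSB knockdown and control.

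Of 14 other proneural bHLH genes 7 were listed and 5 tested. In the CSA knockdown 0 rose and 2 fell [0; 0 to 1], and in the CSB knockdown 1 rose and 1 fell [1; 1], where brackets give the lowest and highest counts with any one library left out, rises before falls. All genes tested gave 8.37% rises and 10.4% falls for the CSA knockdown, with 14.8% and 8.86% for the CSB knockdown. These shares, here and below, cover every gene with a mean of at least 1 in a group, and many list genes lie far above that. They were not matched to the lists for level. With a filter at a mean of at least 10 fewer genes were tested, yet 6219 rather than 5334 changed in the CSA knockdown. ATOH8 had scaled counts of 202 and 227 in the CSA knockdown, 761 and 761 in the CSB knockdown and 252 and 312 in control, and rose in the CSB knockdown (log2 change 1.44 ± 0.10, adjusted p = 1.6e-06). In the CSA knockdown ATOH8 fell by 0.39 ± 0.10 on the log2 scale (adjusted p = 0.0217), a call that any one library left out ended (up to 0.291). The median log2 fold change of the 5 was -0.31 in the CSA knockdown and -0.37 in the CSB knockdown, beside 0.00 and 0.10 over all genes tested. The first is the value of ATOH7, with 4 to 10 reads per library, and the second that of NEUROD2, with 1 to 4 reads. Neither gene passed in either knockdown, so these medians describe no shift of the list.

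Among 10 tested antagonists of proneural factors, 7 fell in the CSA knockdown and the same 7 rose in the CSB knockdown, while HES4, HES5 and HEYL, named after their values were seen, passed in neither. This set is the planned list of 13 without the E protein genes and was not itself planned. HES5 had 1 to 4 reads per library and HEYL 0 to 6, too few for a change to pass readily. HES4 had 673 to 913. The share of all genes that fell in the CSA and rose in the CSB knockdown was not computed, so nothing is read from the joint count. Of these rises, those of HES1 and REST did not pass with TMM scaling. Of 13 tested genes for E proteins, ID proteins, HES and HEY repressors and REST, 1 rose and 7 fell in the CSA knockdown [0 to 1; 6 to 7] and 8 rose and 1 fell in the CSB knockdown [5 to 7; 0 to 1]; with TMM scaling the 8 rises became 6. Over all genes tested, not matched for level, 8.37% rose and 10.4% fell in the CSA knockdown, and 14.8% rose and 8.86% fell in the CSB knockdown. The median log2 fold change was -0.65 in the CSA knockdown and 0.49 in the CSB knockdown. ID1 had scaled counts of 781 and 724 in the CSA knockdown, 4611 and 4397 in the CSB knockdown and 1709 and 1866 in control. It fell in the CSA knockdown (log2 change -1.25 ± 0.06, adjusted p = 9.4e-08) and rose in the CSB knockdown (log2 change 1.33 ± 0.06, adjusted p = 5.8e-08), with no overlap between the groups. ID2, ID3 and ID4 fell in the CSA knockdown too (-0.90 ± 0.07, -1.03 ± 0.06 and -0.65 ± 0.11) and rose in the CSB knockdown (0.84 ± 0.07, 0.82 ± 0.06 and 1.21 ± 0.11). The fall of ID4 ended in 5 of the 6 fits with a library left out (adjusted p up to 0.116), and the other ID calls held in each.

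HES1, the Notch-induced repressor, had scaled counts of 68.3 and 76.3 in the CSA knockdown, 253 and 298 in the CSB knockdown and 219.8 and 194 in control. It fell in the CSA knockdown (log2 change -1.50 ± 0.13, adjusted p = 5.6e-06), and rose less in the CSB knockdown (log2 change 0.41 ± 0.13, adjusted p = 0.0353), a call that ended with any one library left out (up to 0.281) and with TMM scaling (0.0888). HEY1 fell in the CSA knockdown (-0.62 ± 0.07) and rose in the CSB knockdown (0.47 ± 0.07), and REST, which silences neuronal genes outside neurons, fell in the CSA knockdown (-0.71 ± 0.07); HEY1 and REST were named after their values were seen. REST rose in the CSB knockdown (0.26 ± 0.07, adjusted p = 0.0169), a call that ended in the same way (up to 0.236, and 0.0855 with TMM). The E protein gene TCF4 went the other way, with 12038 and 11482 in the CSA knockdown, 7433 and 7637 in the CSB knockdown and 9248 and 9337 in control. It rose in the CSA knockdown (log2 change 0.34 ± 0.05, adjusted p = 3.2e-04) and fell in the CSB knockdown (log2 change -0.30 ± 0.05, adjusted p = 6.1e-04), with calls that ended without either control library and, for the fall, without either CSB knockdown library (adjusted p up to 0.0583 and 0.0677). TCF3, its relative, rose in the CSB knockdown (0.49 ± 0.05), a call that ended in 1 of the 6 fits with a library left out (adjusted p = 0.0525), and was also named after its values were seen. The summed fibroblast markers given above ran in the direction of the ID genes in both knockdowns, and their part in these changes was not tested.

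**Figure D3:**
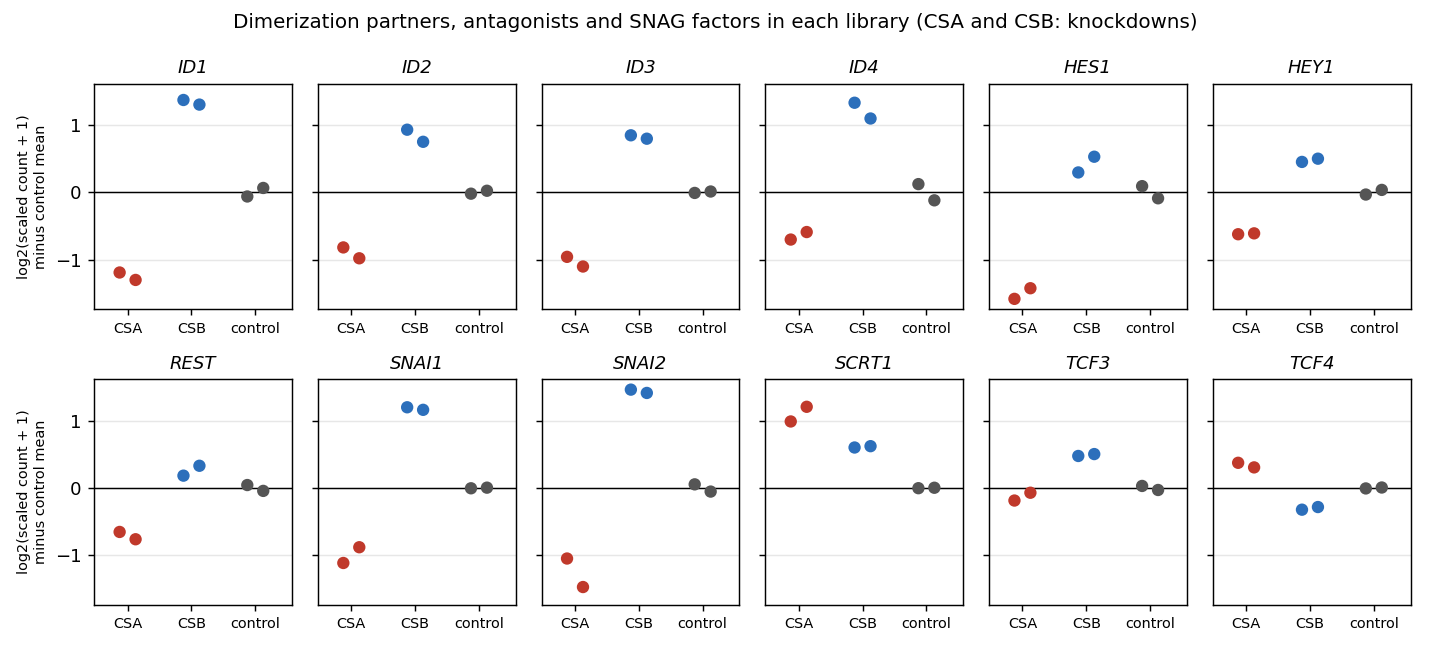
log2(scaled count + 1) minus the control mean in each library for ID, HES, HEY, REST, SNAG factor and E protein genes, with the CSA knockdown, the CSB knockdown and control from left to right. The 4 ID genes lay below control in both CSA knockdown libraries and above it in both CSB knockdown libraries, and TCF4 the other way round.

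Genes reported as targets of neurogenins or NeuroD factors in frog, mouse or human cells were mixed. Of 21 tested, 7 rose and 1 fell in the CSA knockdown [4 to 7; 0] and 6 rose and 4 fell in the CSB knockdown [1 to 5; 1 to 4]; with TMM scaling the second pair became 4 and 5. Beside these stand shares over all genes of 8.37% rising and 10.4% falling for the CSA knockdown, with 14.8% and 8.86% for the CSB knockdown. Their median log2 fold change was 0.23 in the CSA knockdown and 0.02 in the CSB knockdown. EBF1, a helix-loop-helix factor of differentiating neurons, had scaled counts of 452 and 451 in the CSA knockdown, 172 and 144 in the CSB knockdown and 111 and 98.4 in control. It rose in the CSA knockdown (log2 change 2.10 ± 0.12, adjusted p = 2.0e-07), and its smaller rise in the CSB knockdown (log2 change 0.58 ± 0.12, adjusted p = 0.00279) ended with any one library left out (adjusted p up to 0.103). The microtubule gene DCX rose in the CSA knockdown (0.89 ± 0.06, adjusted p = 5.6e-07), as did RND2, a small GTPase gene of migrating neurons (0.55 ± 0.07, adjusted p = 1.0e-04). Both fell in the CSB knockdown by little (-0.30 ± 0.06 and -0.29 ± 0.07), calls that each ended in 4 of the 6 fits with a library left out (adjusted p up to 0.0661 and 0.160). The Notch ligand gene DLL1, a classical neurogenin target, had 40.1 and 37.2 in the CSA knockdown, 25.3 and 26.4 in the CSB knockdown and 20.9 and 24.1 in control, and did not pass in either (adjusted p = 0.0691 and 0.664). Its difference in the CSA knockdown passed by edgeR on recovered reads (adjusted p = 0.034) and with a filter at a mean of 10 (0.035).

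Among targets with a mean of at least 50, the largest rise in the CSB knockdown was that of BTG2, an antiproliferative gene that p53 also induces, with 1577 and 1613 against 682 and 679 in control (log2 fold change 1.23 ± 0.06, adjusted p = 5.8e-08). STMN2, which encodes a microtubule regulator of growth cones, fell (-0.49 ± 0.05, adjusted p = 2.6e-05), and so did the RNA-binding protein gene ELAVL3 (-0.59 ± 0.06, adjusted p = 1.9e-05), whose call ended without either CSB knockdown library (up to 0.0596). The small rise of the kinase activator CDK5R1 (0.29 ± 0.06) ended without CSB knockdown replicate 2 or either control library (up to 0.0823). In the CSA knockdown the single fall, that of HES6 (-0.28 ± 0.07, adjusted p = 0.0110), ended with any one library left out (up to 0.216).

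Among 11 tested transcription factors of neuroendocrine cells, 2 rose and 4 fell in the CSA knockdown [1 to 2; 0 to 3], where 8.37% and 10.4% of all genes did, and 4 rose and 4 fell in the CSB knockdown [2 to 4; 0 to 3], where 14.8% and 8.86% did. With TMM scaling the rise of MYT1L in the CSB knockdown no longer passed (adjusted p = 0.0535), nor did the fall of SOX4 in the CSA knockdown (adjusted p = 0.0722). The median log2 fold change of the 11 was -0.02 in the CSA knockdown and 0.17 in the CSB knockdown. The value 0.17 is that of ONECUT1, which had 0 to 3 reads per library and did not pass. ONECUT2 had scaled counts of 1574 and 1469.6 in the CSA knockdown, 896 and 925 in the CSB knockdown and 1045 and 1031 in control, and rose in the CSA knockdown (log2 change 0.55 ± 0.06, adjusted p = 3.4e-05). SOX4 and SOX11, which act in immature neurons, rose in the CSB knockdown by 0.95 ± 0.06 and 0.66 ± 0.05 on the log2 scale (adjusted p = 5.4e-07 and 4.0e-06). SOX4 had 14919 and 16573 in the CSA knockdown, 35086 and 34813 in the CSB knockdown and 18686 and 17442 in control. The remaining calls of this list that the naming rule picks, MYT1L, ISL1, POU3F2 and SOX11 in the CSA knockdown and ISL1, FEV, POU3F2 and PROX1 in the CSB knockdown, ended in at least 3 of the 6 fits with a library left out (adjusted p up to 0.251). No call of this list counted as a fall in the CSA knockdown held in each of those fits.

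Of 23 tested secretory and marker genes of neuroendocrine cells, 12 rose and 3 fell in the CSA knockdown [7 to 10; 1 to 2], with a median log2 fold change of 0.33, and 4 rose and 11 fell in the CSB knockdown [2 to 3; 6 to 12], with a median of -0.23; with TMM scaling the second pair became 3 and 14. Rises made up 8.37% and falls 10.4% of all genes for the CSA knockdown, against 14.8% and 8.86% for the CSB knockdown. The granin gene CHGA had scaled counts of 22906 and 25867 in the CSA knockdown, 3566 and 3681 in the CSB knockdown and 15330.3 and 14469 in control. It rose in the CSA knockdown (log2 change 0.71 ± 0.06, adjusted p = 6.6e-06), and its fall in the CSB knockdown was the largest of the 23 tested (log2 fold change -2.04 ± 0.06, adjusted p = 3.2e-09). CHGB rose in the CSA knockdown (1.09 ± 0.06) and fell in the CSB knockdown (-1.13 ± 0.06). SCG3, another granin, had 1845 and 1709 in the CSA knockdown, 657 and 664 in the CSB knockdown and 1799 and 1788 in control, and fell in the CSB knockdown (-1.44 ± 0.06). Others went against this direction: PTPRN2, a protein of dense-core vesicles, fell in the CSA knockdown (-0.40 ± 0.06), and PCSK1N, an inhibitor of prohormone convertase, and the adhesion molecule NCAM1 rose in the CSB knockdown (0.67 ± 0.05 and 0.45 ± 0.05). These calls held with any one library left out. SCG2, a further granin, rose in the CSA knockdown (1.01 ± 0.05), as did the vesicle protein gene SYP (0.81 ± 0.08). The SYP call ended without either CSB knockdown library. Those libraries are outside this comparison, so the log2 fold change stayed at 0.81 and only the shared estimate of spread changed. Falls of SEZ6 and VGF in the CSA knockdown and the rise of CADPS in the CSB knockdown ended in 4 or more of the 6 fits with a library left out (adjusted p up to 0.332).

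SNAG-domain relatives of the INSM factors changed in different directions. Of 16 tested genes, 2 rose and 4 fell in the CSA knockdown [1 to 2; 3 to 4], with a median log2 fold change of -0.08, and 8 rose and 2 fell in the CSB knockdown [2 to 8; 0 to 2], with a median of 0.17; with TMM scaling the second pair became 6 and 3. Of all genes, 8.37% rose and 10.4% fell in the CSA knockdown and 14.8% rose and 8.86% fell in the CSB knockdown. SNAI2, a repressor of the neural crest and mesenchymal cells, had scaled counts of 183 and 136 in the CSA knockdown, 1045 and 1009.8 in the CSB knockdown and 394 and 366 in control. It fell in the CSA knockdown (log2 change -1.26 ± 0.12, adjusted p = 1.1e-05) and rose in the CSB knockdown (log2 change 1.43 ± 0.12, adjusted p = 3.5e-06), where the call ended without either CSB knockdown library (adjusted p up to 0.0543). SNAI1 had 170.2 and 200.3 in the CSA knockdown, 848 and 826 in the CSB knockdown and 368 and 370.4 in control, and fell in the CSA knockdown (adjusted p = 7.9e-06) and rose in the CSB knockdown (adjusted p = 2.0e-06). SCRT1, a neuronal member, had 1435 and 1669 in the CSA knockdown, 1098 and 1113 in the CSB knockdown and 722 and 725 in control. It rose in the CSA knockdown (1.10 ± 0.07, adjusted p = 6.6e-07) and in the CSB knockdown (0.61 ± 0.07, adjusted p = 5.7e-05), where the call ended in 2 of the 6 fits with a library left out (adjusted p up to 0.0706). KDM1A, the demethylase that INSM1 recruits, did not pass in the CSA or the CSB knockdown (0.02 ± 0.05 and -0.09 ± 0.05, adjusted p = 0.866 and 0.198). In the CSB knockdown it was called lower with TMM scaling, edgeR and DESeq2 (adjusted p = 0.0301, 0.0214 and 0.0028). GSE1, a partner of it, fell in the CSA knockdown (-0.54 ± 0.05). The summed fibroblast markers also ran in the direction of SNAI1 and SNAI2, and their part was not tested.

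**Figure D4:**
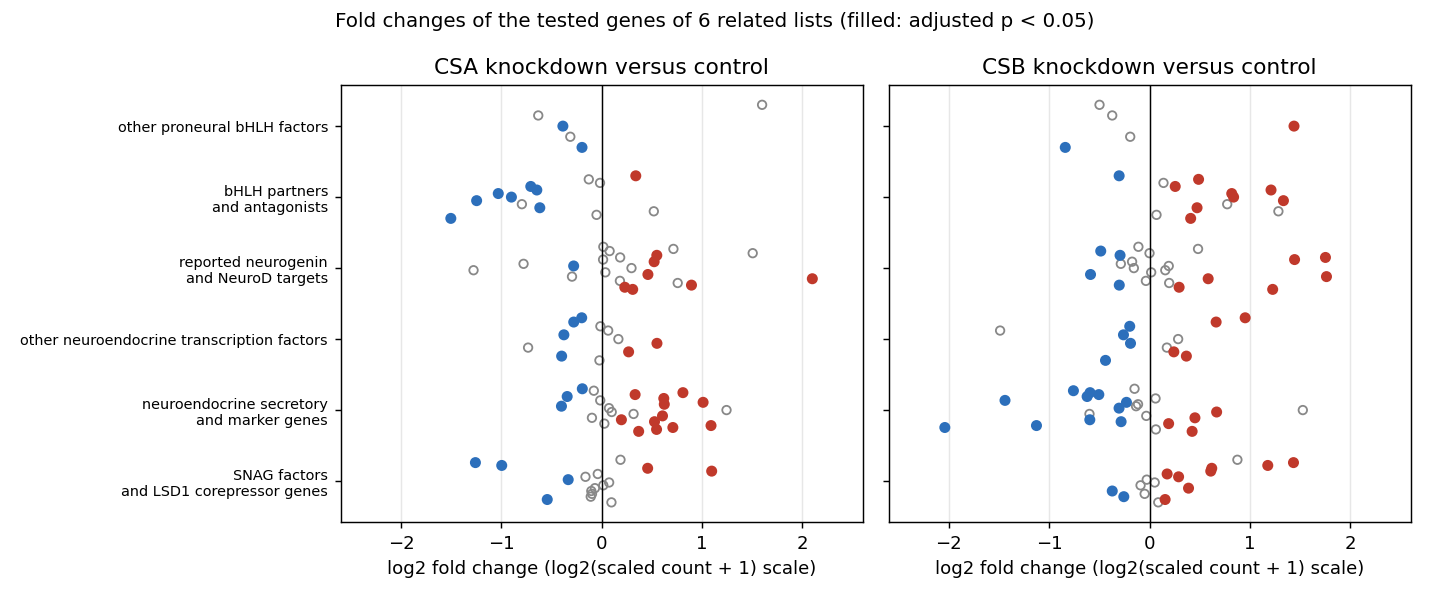
log2 fold changes against control, on the log2(scaled count + 1) scale, of the tested genes of 6 lists in the CSA knockdown (left) and the CSB knockdown (right). Filled points passed adjusted p below 0.05 (red higher, blue lower) and open points did not. Of 13 partners and antagonists, 7 fell in the CSA knockdown and 8 rose in the CSB knockdown.

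The knockdowns share their control libraries, so they were also compared directly, where 29.4% of all genes tested changed (18.1% rose, 11.3% fell in the CSB knockdown relative to the CSA knockdown). Rises made 61.5% of these calls, and 48.9% with TMM scaling. Of the partners and antagonists 9 rose and 1 fell [8 to 9; 1], with ID1 higher by 2.58 ± 0.06 (adjusted p = 7.0e-11) and HES1 by 1.91 ± 0.13 (adjusted p = 2.5e-07) on the log2 scale, and TCF4 lower (-0.64 ± 0.05, adjusted p = 7.3e-07). Of the secretory and marker genes 4 rose and 15 fell [2 to 4; 11 to 14], led by CHGA (-2.75 ± 0.06, adjusted p = 4.9e-11) and CHGB (-2.22 ± 0.06, adjusted p = 1.3e-10). Of the reported targets 4 rose and 7 fell [1 to 5; 6 to 8], with EBF1 (-1.51 ± 0.12) and DCX (-1.20 ± 0.06) lower and BTG2 higher (0.92 ± 0.06). Of the other proneural genes 1 rose and 2 fell, of the neuroendocrine factors 3 rose and 3 fell, and of the SNAG factors and corepressors 7 rose and 2 fell. With TMM scaling RCOR3 of the last list, named for this change, no longer passed as a rise (adjusted p = 0.106). HDAC1 and KDM1A then passed as falls (adjusted p = 0.00544 and 0.00894). SNAI2 was higher in the CSB knockdown by 2.69 ± 0.12 and SNAI1 by 2.17 ± 0.09. NEUROG2, with 1 read in the CSB knockdown against 1310 in the CSA knockdown, had a ratio of 7.1e-04 (95% interval 1.8e-05 to 0.00396), and INSM2, with 32 against 4936, a ratio of 0.00603 (0.00412 to 0.00852). NEUROD1 had a ratio of 0.479 (0.351 to 0.648), with no test, since the levels of these 3 chose them. These 3, and INSM1 at 0 in the CSB knockdown, did not overlap between the knockdowns, where 23.7% of all genes tested were lower without overlap and 36.5% higher.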

How the data were processed

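mRNA was sequenced from 6 SH-SY5Y libraries, 2 in each of 3 groups. RNA came from a Trizol extraction and went into Illumina TruSeq libraries, per the labels' protocols. The submitters' processing notes name hg38, HISAT2 2.0.4 and FastQC. Counter, scaling tool, annotation and strand setting: not given in the sources used here. Per the file headers, the deposited signal is FPKM, but in each library 100% of values were whole multiples of the smallest one (tolerance 0.01 of that step), so the authors' values are reads divided by 1 size factor per library. Reads were recovered by that division, and a gene without an entry was taken as 0. The deposited gene length, another column, was used for levels per kilobase.

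Genes with a mean of at least 1 in a group, 28388 in all, were fitted with limma 3.58.1 (R 4.3.3) with a mean-variance trend on log2(scaled count + 1), all 6 libraries in 1 fit with 3 residual degrees of freedom, and Benjamini-Hochberg adjustment at 0.05. Every adjusted p is from limma unless edgeR 4.0.16 or DESeq2 1.42.0 is named. The pseudocount understates changes of genes with few reads. Members and lists were chosen with earlier results of these data known, so lists are described by counts and medians and not tested. The shares over all genes were not matched to any list for level. Named in the text are the 5 members, ERCC8 and ERCC6, and, per list and comparison, up to 3 rises and 3 falls with the largest change among called genes with a mean of at least 50, besides the 2 nearest neighbours on each side and the 4 most similar genes. The fit was tested on simulated data. Changes of at least 1 log2 unit were planted in the CSA group, in genes with a mean of at least 50 reads. All genes had 1 fixed spread, so the simulation does not cover smaller changes or genes with fewer reads. The values of 1 gene in the lists are not reported here. Other pseudocounts, filters, scaling, count models, pairing by replicate number and leaving out each library were tried. Leaving out a library of the group outside a comparison keeps the fold changes of that comparison. It changes only the shared estimate of spread and its degrees of freedom.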

Additional observations from a re-analysis of the deposited data

How the results depend on the processing

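Replicate numbers did not pair the libraries (correlations of deviations -0.032, -0.04 and -0.032 over 13397 genes), and with the replicate number as a block 5259 genes changed in the CSA knockdown, 6575 in the CSB knockdown and 8258 between them, against 5334, 6706 and 8340 without it. Fitting only the CSA knockdown and control gave 2460 genes, with 0 other proneural genes and 2 other neuroendocrine factors called. On the recovered reads, edgeR called 6119, 7268 and 8931 genes and DESeq2 4112, 5092 and 6492, in the same order of comparisons. With 1 library left out, 1512 to 2882 genes changed in the CSA knockdown, 1907 to 5451 in the CSB knockdown and 4003 to 6268 between them. In list order (other proneural, partners, targets, neuroendocrine factors, secretory genes, SNAG and corepressor genes), calls then numbered 0 to 1, 6 to 7, 4 to 7, 1 to 5, 8 to 12 and 4 to 5 in the CSA knockdown. In the CSB knockdown they numbered 2, 5 to 8, 2 to 9, 2 to 7, 8 to 15 and 2 to 10, and between knockdowns 2 to 3, 9 to 10, 7 to 13, 4 to 6, 13 to 18 and 5 to 9. INSM1 in the CSA knockdown had a log2 fold change of 1.05 with a pseudocount of 5. INSM2 in the CSA knockdown had 2.62 with that pseudocount, 2.65 with TMM and 2.65 with edgeR. In the CSB knockdown, INSM2 had -4.35 with that pseudocount, -4.73 with TMM, -4.80 with edgeR and -4.83 with DESeq2. NEUROG2 there had -4.11 with a pseudocount of 1, -4.81 with 0.5, -2.35 with 5, -5.34 with edgeR and -5.69 with DESeq2, so its fitted change is no measure of size, since 1 read stands behind it. With 1 library left out it ran from -4.55 to -3.68, NEUROD1 from -0.71 to -0.13 there and from 0.32 to 0.91 in the CSA knockdown, and INSM1 from 1.40 to 2.98. The fold changes given for the 4 listed factors kept their sign under the alternatives run. With TMM scaling, falls outnumbered rises among all genes in the CSB knockdown (3246 and 3026, against 2515 and 4191) and among the targets there. Reads limit INSM1 and, in the CSB knockdown, NEUROG2.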
